A study of Homo sapiens with 6 samples.

Results

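Cadherins, catenins and desmosome genes were read across 6 RNA-seq libraries from pancreatic ductal adenocarcinoma (PDAC) cell lines, as the rows of the deposited table that carry 1 of 10 symbols. The 10 genes, out of 41768 in the table, were the classical cadherins CDH1, CDH2 and CDH3, the catenins CTNNB1 and CTNND1, the desmosomal cadherins DSC2, DSG2 and DSG3, and the plaque genes DSP and PKP3. The libraries came from PANC-1, an established human PDAC line, and from a line named 90 in the labels. Each line had 2 libraries treated with siRNA against ALDOA, the glycolytic enzyme aldolase A, called siALDOA 1 and siALDOA 2, and 1 library labelled NC. The labels do not spell out NC or 90, and do not tell whether the numbers 1 and 2 mark separate siRNAs or repeats. They also name no separate cultures, so each p-value reflects how far these 6 libraries scatter, and that scatter may be technical.

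Values are FPKM, fragment numbers scaled to gene length and to library depth, so levels of different genes can be set side by side, but only roughly. The gene lengths used are not stated, and FPKM do not correct for shifts with GC content. Recovered depth ran from 17.8 to 21.8 M (mega) fragments per library. ALDOA, the targeted gene, stood at 501 and 462 FPKM in the siALDOA libraries of PANC-1 against 906 in NC, and at 262 and 318 against 726 in the 90 line. The keratin genes KRT8, KRT18 and KRT19, which mark epithelial cells, were present in both lines at 652 FPKM or more. KRT7, another keratin of the same marker list, was at 6.24 to 11.5 FPKM in PANC-1 and at 905 to 1349.9 in the 90 line, and EPCAM was at 7.51 to 17.5 FPKM in PANC-1 and at 88.6 to 154 in the 90 line. Of 15 markers of other cell types, 3 reached 1 FPKM in any library, namely COL1A1, CD68 and CDH5. CD68 was at 124 to 162 FPKM in PANC-1 and at 31.3 to 51.2 in the 90 line (log2 difference 1.90, limma adjusted p = 3.18e-03), and made up nearly all of the summed leukocyte markers (124 to 162 against 31.5 to 51.6 FPKM). The leukocyte markers PTPRC and CD3E and the fibroblast markers DCN and COL1A2 stood at 0 to 0.0347 FPKM. Other fibroblast markers were higher in PANC-1, COL3A1 at 0.282 to 0.359 FPKM against 0 in each 90 library. PDGFRB was at 0.161 to 0.208 FPKM against 0.00898 to 0.0886, while LUM stayed at 0 to 0.0970 in both lines. Of the leukocyte markers, CD79A was at 0.255 to 0.546 FPKM in PANC-1 and 0.0894 to 0.334 in the 90 line, and LYZ at 0 to 0.0302 in both. The summed fibroblast markers were at 10.5 to 14.4 FPKM in PANC-1 and 1.31 to 1.77 in the 90 line, nearly all COL1A1, and the part of these markers in the differences between the lines was not tested. In bulk RNA, fewer cells of a kind and less RNA per cell cannot be told apart.

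Classical cadherins join neighbouring cells through calcium-dependent contacts, and their cytoplasmic tails bind p120 catenin, encoded by CTNND1, and beta-catenin, encoded by CTNNB1, which links the junction to actin and also acts in Wnt signalling. Desmosomes are built on a similar plan from other cadherins, the desmogleins and desmocollins, whose plaque proteins plakoglobin, plakophilin and desmoplakin tie the junction to keratin filaments. In carcinoma biology, loss of E-cadherin (CDH1) with presence of N-cadherin (CDH2) is widely used as a sign of a mesenchymal state.

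PANC-1 had little E-cadherin and P-cadherin RNA and more N-cadherin RNA than the 90 line. CDH1, the E-cadherin gene, was at 2.05 FPKM in siALDOA 1, 1.85 in siALDOA 2 and 1.18 in NC of PANC-1, against 43.0, 38.0 and 44.5 FPKM in siALDOA 1, siALDOA 2 and NC of the 90 line. The highest PANC-1 library was therefore far under the lowest 90 library. The mean was 1.69 ± 0.459 FPKM in PANC-1 and 41.8 ± 3.43 in the 90 line (SD, n = 3 libraries each, NC and siALDOA together). The difference on the log2(FPKM + 1) scale was -4.00 (SE 0.189, limma adjusted p = 2.28e-04, Benjamini-Hochberg over all 12592 tested genes).

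CDH3, which encodes P-cadherin, was at 1.52, 0.799 and 0.907 FPKM in siALDOA 1, siALDOA 2 and NC of PANC-1, against 29.2, 39.8 and 31.7 FPKM in siALDOA 1, siALDOA 2 and NC of the 90 line. Its ranges did not overlap either, and the log2 difference was -4.06 (SE 0.220, limma adjusted p = 2.98e-04). CDH3 and CDH1 are neighbours on chromosome 16 (GRCh38, GENCODE v29). CDH3 runs from 68636189 to 68722616 and CDH1 from 68737225 to 68835548, both on the plus strand, with 14.6 kb between them.

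CDH2, which encodes N-cadherin, ran the other way. It was at 5.50, 7.82 and 5.29 FPKM in siALDOA 1, siALDOA 2 and NC of PANC-1, and at 1.39, 0.866 and 1.12 FPKM in the 90 line. The lowest PANC-1 library lay above the highest 90 library, and the log2 difference was 1.75 (SE 0.221, limma adjusted p = 3.37e-03). The gene spans 226 kb of chromosome 18, from 27950966 to 28177446 on the minus strand.

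**Figure D1:**
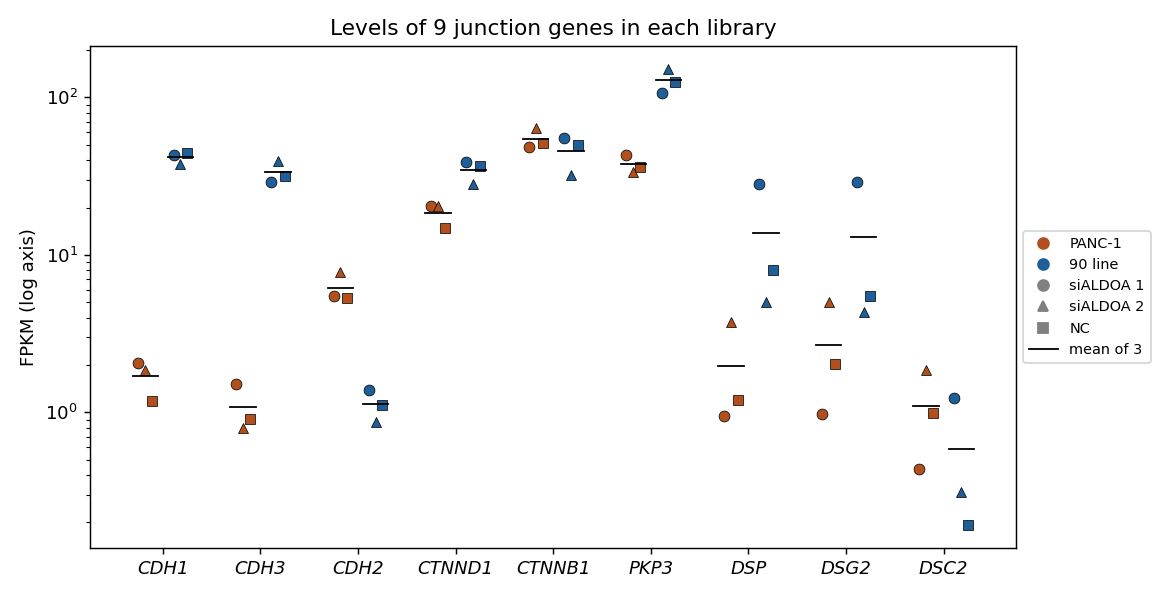
FPKM on a log axis of 9 of the 10 genes in each library, with PANC-1 left of the 90 line within each gene; symbols give siALDOA 1, siALDOA 2 and NC, and the line is the mean of the 3 libraries. CDH1, CDH3, CTNND1, PKP3 and DSP are lower in each PANC-1 library than in each 90 library, CDH2 is higher, and DSP, DSG2 and DSC2 spread widely within a line; DSG3, listed at 0 in 2 libraries, is not drawn.

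The make-up of the summed CDH1, CDH2 and CDH3 RNA differed accordingly. Of the summed FPKM of CDH1, CDH2 and CDH3, N-cadherin held 60.6% to 74.7% in PANC-1 libraries and 1.10% to 1.88% in 90 libraries. The sum itself was 7.38 to 10.5 FPKM in PANC-1 and 73.7 to 78.6 FPKM in the 90 line. Other cadherins are outside this sum, and the shares hold for these genes only. CDH24, for example, was at 5.51, 4.15 and 4.97 FPKM in siALDOA 1, siALDOA 2 and NC of PANC-1. In the 90 line it was at 9.17, 12.0 and 10.8 FPKM. The ratio of CDH1 to CDH2 was 0.373, 0.237 and 0.222 in siALDOA 1, siALDOA 2 and NC of PANC-1, against 31.0, 43.8 and 39.7 in the 90 line. That of CDH1 to CDH3 was 1.35, 2.32 and 1.30 in PANC-1 and 1.47, 0.955 and 1.40 in the 90 line, and the ranges of the lines overlapped. With 3 libraries per line an exact two-sided permutation test cannot go under p = 0.1, which the CDH1 to CDH2 ratio reached (0.2 after Benjamini-Hochberg adjustment over the 6 ratios compared), and the CDH1 to CDH3 ratio had p = 0.6 (0.72 adjusted).

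**Figure D2:**
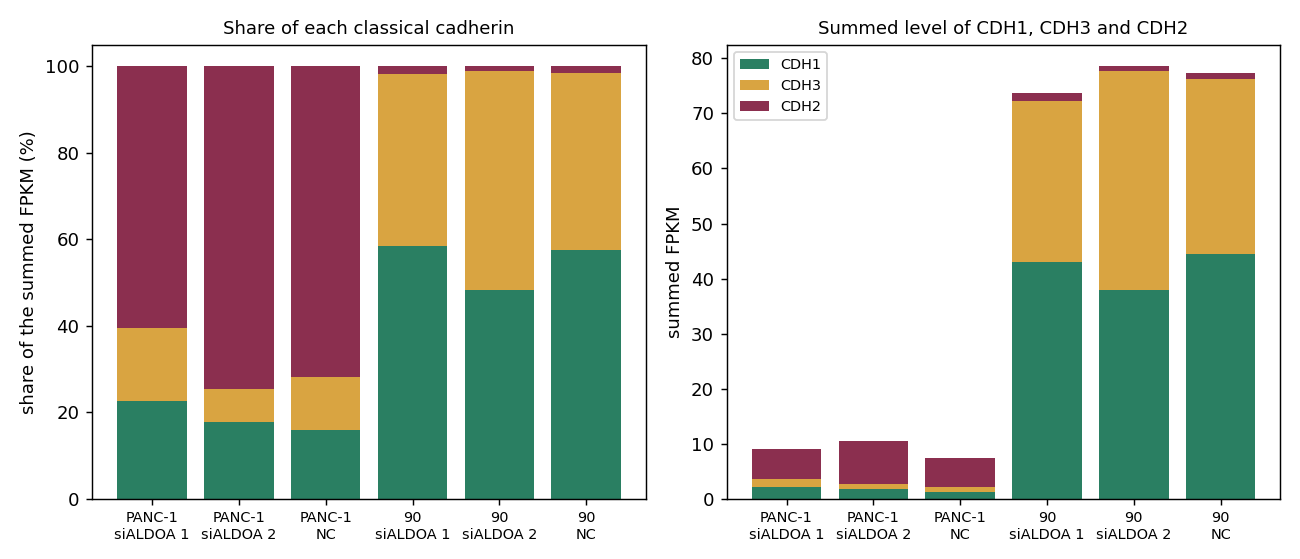
Share of each of CDH1, CDH2 and CDH3 in their summed FPKM (left) and the summed FPKM (right) in each library, PANC-1 before the 90 line. CDH2 holds 60.6% to 74.7% of a small sum in PANC-1, and CDH1 and CDH3 hold nearly all of a sum of 73.7 to 78.6 FPKM in the 90 line.

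Among the catenins, p120 catenin was lower in PANC-1 and beta-catenin did not pass the test. CTNND1 (chromosome 11, 57753243 to 57819546, plus strand) was at 20.4, 20.5 and 14.8 FPKM in siALDOA 1, siALDOA 2 and NC of PANC-1, against 39.1, 28.2 and 36.9 in the 90 line. The ranges did not overlap, and the log2 difference was -0.87 (SE 0.205, limma adjusted p = 0.0252). With the library number as a replicate block it had adjusted p = 0.066, and it was lost without 90 NC (log2 difference -0.67, adjusted p = 0.155), PANC-1 NC (-0.67, 0.145), siALDOA 1 of 90 (-0.80, 0.0739), siALDOA 1 of PANC-1 (-0.93, 0.0534) or siALDOA 2 of PANC-1 (-0.93, 0.0672).

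CTNNB1 (chromosome 3, 41194741 to 41260096, plus strand) was at 48.5, 63.8 and 51.3 FPKM in PANC-1 and at 55.3, 32.0 and 49.6 FPKM in the 90 line. Its ranges overlapped, with a log2 difference of 0.28 (SE 0.255, limma adjusted p = 0.461). The ratio of CTNNB1 to CTNND1 was 2.38, 3.11 and 3.47 in siALDOA 1, siALDOA 2 and NC of PANC-1 and 1.41, 1.14 and 1.34 in the 90 line (exact permutation p = 0.1, two-sided, 0.2 adjusted over 6 ratios). In PANC-1, CTNNB1 was the most abundant of the 10 genes, at a mean of 54.5 FPKM, and no library of it fell into the range of the next, PKP3. In the 90 line CTNNB1 was second, and its range overlapped that of CDH1.

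Of the desmosome genes, PKP3 was lower in PANC-1, and DSP, DSG2 and DSC2 varied several-fold within a line. PKP3, which encodes plakophilin 3, was at 42.9, 33.5 and 36.2 FPKM in siALDOA 1, siALDOA 2 and NC of PANC-1, against 107, 152 and 126 FPKM in the 90 line. All 3 PANC-1 libraries were under all 90 libraries, and the log2 difference was -1.74 (SE 0.186, limma adjusted p = 1.99e-03). It was the most abundant of the 10 genes in the 90 line. Its gene is on chromosome 11 (392614 to 404908, plus strand). It made up 97.2% to 98.6% of the summed FPKM of PKP1, PKP2 and PKP3 in PANC-1, and 78.2% to 93.1% in the 90 line, where PKP2 held most of the rest.

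DSP, which encodes desmoplakin, was at 0.946, 3.75 and 1.21 FPKM in siALDOA 1, siALDOA 2 and NC of PANC-1, against 28.0, 4.99 and 8.01 FPKM in the 90 line. The ranges did not overlap, but values within a line differed 3.96-fold in PANC-1 and 5.61-fold in the 90 line, and the log2 difference of -2.09 (SE 0.691) did not pass the test (limma adjusted p = 0.0687). DSG2, the desmoglein found in most epithelia, was at 0.980, 5.02 and 2.01 FPKM in PANC-1 and at 29.2, 4.32 and 5.50 FPKM in the 90 line. The highest PANC-1 value exceeded the lowest 90 value, and the log2 difference was -1.62 (SE 0.798, limma adjusted p = 0.181).

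After a correction of each library's trend with the GC content of transcripts, both genes passed, DSG2 at -1.74 (SE 0.503, limma adjusted p = 0.0292) and DSP at -2.11 (SE 0.661, adjusted p = 0.0386). DSP also passed after scaling by the median ratio (adjusted p = 0.0284) and after quantile normalization (0.0145). Without siALDOA 1 of 90 the log2 differences were smaller, -0.83 for DSG2 (adjusted p = 0.306) and -1.43 for DSP (0.105). Without siALDOA 2 of 90, DSP passed (-2.73, adjusted p = 0.0332). Leaving out siALDOA 1 of both lines was chosen after seeing the data. It left 1 siALDOA and 1 NC library per line, so the spread can hardly be estimated. DSP passed there, but its log2 difference shrank to -1.18 from -2.09, and that of DSG2 to -0.47 from -1.62. With the library numbers crossed between the lines as a block, both passed (limma adjusted p = 8.99e-03 for DSG2 and 2.37e-03 for DSP). That pairing was chosen after seeing how these libraries deviate, so the pass is no independent check. The fit called 7594 of 12592 genes, against 4882 in the main fit.

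DSC2, which encodes desmocollin 2, was at 0.436, 1.85 and 0.998 FPKM in siALDOA 1, siALDOA 2 and NC of PANC-1, and at 1.24, 0.311 and 0.193 FPKM in the 90 line. Its mean over all libraries was under 1 FPKM, so it was not tested, and its ranges overlapped. The ratio of DSG2 to DSC2 was 2.25, 2.71 and 2.02 in siALDOA 1, siALDOA 2 and NC of PANC-1 and 23.5, 13.9 and 28.5 in the 90 line (exact permutation p = 0.1, two-sided, 0.2 adjusted over 6 ratios).

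DSG3, a desmoglein of stratified epithelia, was close to absent from the libraries. It was listed at 0 in siALDOA 1 and NC of PANC-1 and at 0.00962 FPKM in siALDOA 2, against 0.0370, 0.0189 and 0.0101 FPKM in siALDOA 1, siALDOA 2 and NC of the 90 line. Multiplied by the recovered depth, these values were whole multiples (1, 4, 2 and 1) of the smallest, within 1.41e-05 of a whole number. If the smallest is 1 fragment, the highest is 4, and no level or difference can be read from them.

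**Figure D3:**
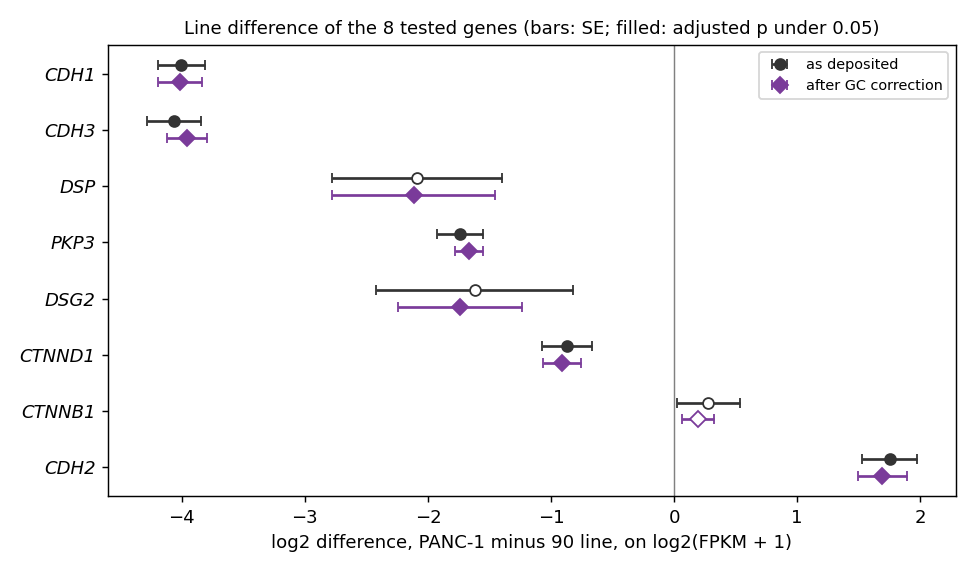
Difference on log2(FPKM + 1) between PANC-1 and the 90 line for the 8 tested genes, with SE, as deposited (circles) and after the GC correction (diamonds); filled symbols passed limma at an adjusted p under 0.05. DSP and DSG2 have the widest errors and pass, of these fits, with the GC correction only, and CTNNB1 passes in neither.

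In all, limma tested 8 of the 10 genes, those with a mean of at least 1 FPKM, and each of the 8 also had a mean of at least 1 FPKM in either line taken alone. It called 5 of the 8, 1 higher and 4 lower in PANC-1, where 38.8% of all 12592 tested genes were called, 20.4% higher and 18.4% lower. Those calls were 2567 higher and 2315 lower, against 1607 higher and 2093 lower after scaling by the median ratio. FPKM ranges of the lines did not overlap for 6 of the 8, 1 higher and 5 lower in PANC-1, against 54.1% of all tested genes, 29% higher and 25.1% lower. The median log2 difference was -1.68 over the 8 and 0.13 over all tested genes, a shift that scaling by the median ratio brought to 0.02. CDH1, CDH3, PKP3 and CDH2 were called in each alternative fit in which they were tested.

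In each line, 1 siALDOA library held the highest values of DSG2, DSP and DSC2, siALDOA 2 in PANC-1 and siALDOA 1 in the 90 line. In siALDOA 1 of PANC-1, DSG2 was at 0.486 times its NC value, DSP at 0.785 times and DSC2 at 0.437 times. In siALDOA 2 of PANC-1 the same ratios were 2.49, 3.11 and 1.86. In siALDOA 1 of the 90 line, DSG2, DSP and DSC2 were at 5.30, 3.50 and 6.43 times NC, and in siALDOA 2 at 0.785, 0.624 and 1.61 times NC. The DSC2 ratios of that line rest on a low NC value, 0.193 FPKM. The ratio of DSG2 to DSP kept within a narrower span, at 1.04, 1.34 and 1.67 in siALDOA 1, siALDOA 2 and NC of PANC-1 and at 1.04, 0.865 and 0.687 in the 90 line.

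**Figure D4:**
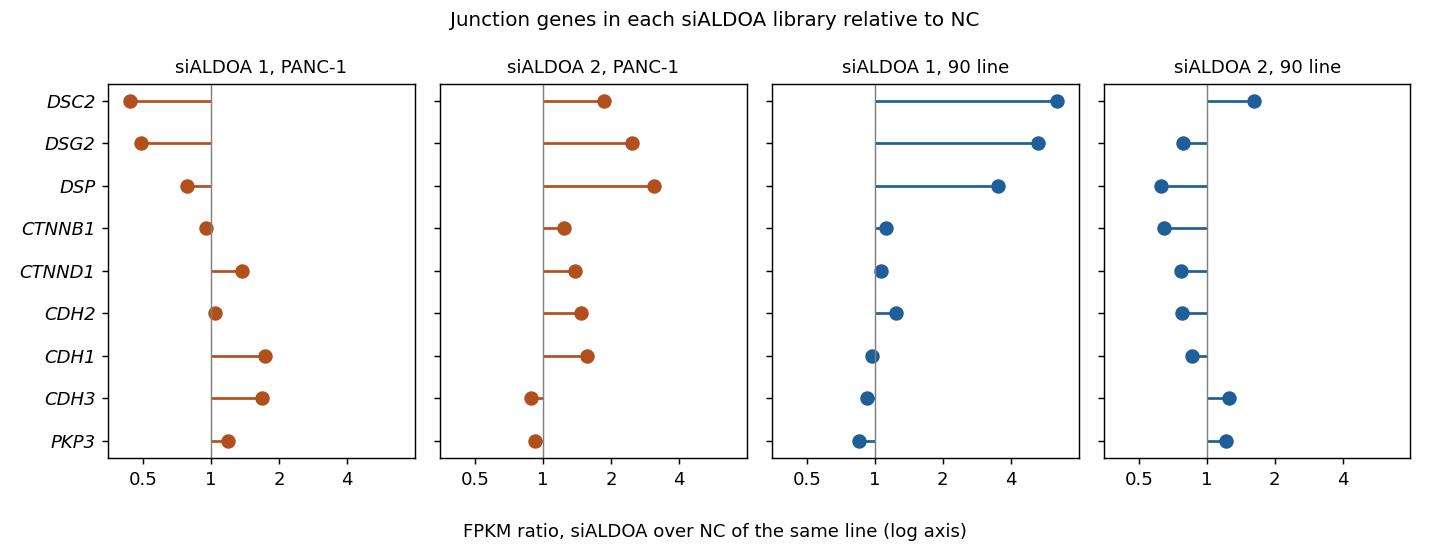
FPKM in each siALDOA library over the FPKM of NC of the same line, on a log axis, for 9 of the 10 genes, with PANC-1 panels left of those of the 90 line. DSC2, DSG2 and DSP reach 3.50 to 6.43 times NC in siALDOA 1 of 90 and 1.86 to 3.11 times in siALDOA 2 of PANC-1, while the other 6 genes stay between 0.646 and 1.74 times NC in each library.

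Transcripts of low GC content shifted in the same libraries, and the part of this shift in the values of DSG2, DSP and DSC2 was not tested. The longest GENCODE v29 transcript has a GC content of 38.9% for DSC2, 42.0% for DSG2 and 47.9% for DSP, against 48.6% for CDH1, 54.1% for CDH3 and 66.7% for PKP3. In siALDOA 1 of 90, the eighth of tested genes with the lowest GC content had a median log2 change of 1.40 and that with the highest -0.27. The GC content of DSC2 lies in the range of that lowest eighth, 25% to 39.6%. In siALDOA 2 of PANC-1 the same medians were 0.56 and -0.22, and in siALDOA 1 of PANC-1 they were -1.02 and 0.10. DSG2 changed by 2.21 on the log2(FPKM + 1) scale in siALDOA 1 of 90, where the 241 genes in its own eighths of GC content and of transcript length had a median of 1.06. It changed by 0.998 in siALDOA 2 of PANC-1, where those genes had a median of 0.62, and by -0.61 in siALDOA 1 of PANC-1, where their median was -0.55.

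DSP was compared with transcripts of its own GC content and length in the same way. In siALDOA 1 of 90 it changed by 1.69, where the 220 genes in its eighths of GC content and of length had a median of 0.11. In siALDOA 2 of PANC-1 it changed by 1.11 against a median of 0.37 for those genes, in siALDOA 1 of PANC-1 by -0.18 against 0.16, and in siALDOA 2 of 90 by -0.59 against -0.28. After the GC correction its changes in siALDOA 1 of 90 and siALDOA 2 of PANC-1 were 1.90 and 1.11, and those of DSG2 were 1.67 and 0.68.

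The counts that follow use the log2(FPKM + 1) scale, where DSG2 changed by -0.61 in siALDOA 1 and 0.998 in siALDOA 2 of PANC-1. In FPKM alone DSG2 was past 2-fold in both, at 0.486 and 2.49 times NC. Of the 8 tested genes, 2 were past 2-fold higher in siALDOA 1 of 90, where 15.8% of all tested genes were (16.1% in either direction and 0.278% lower). In siALDOA 2 of PANC-1, 1 of the 8 was past 2-fold higher, against 3.69% of all tested genes (4.07% in either direction and 0.373% lower). In siALDOA 1 of PANC-1, 0 of the 8 were past 2-fold, against 11.3% of all tested genes (0.445% higher and 10.9% lower). In siALDOA 2 of 90, 0 of the 8 were past 2-fold, against 1.74% (0.913% higher and 0.826% lower).

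The comparison of siALDOA with NC asks which junction genes differed where ALDOA was lower, and limma called none of them. It did not call ALDOA itself either (log2 difference -1.12, SE 0.160, unadjusted p = 9.07e-04, adjusted p = 1), although ALDOA was lower than NC in 4 of 4 siALDOA libraries, so the absence of calls says little about the junction genes. Over both lines 0 of 12592 genes (0%) passed an adjusted p under 0.05, with 43 (0.341%) at an unadjusted p under 0.05, and none of the 8 was among these 43 (lowest unadjusted p = 0.483, CDH1). The estimates on the log2 scale were 0.15 for CDH1 (SE 0.200), 0.13 for CDH2 (SE 0.235), 0.13 for CDH3 (SE 0.234), 0.15 for CTNND1 (SE 0.217), -0.06 for CTNNB1 (SE 0.271) and 0.04 for PKP3 (SE 0.198). Those for DSG2 and DSP were 0.58 (SE 0.846) and 0.51 (SE 0.733), with errors larger than the estimates. For 0 of the 8 did all 4 siALDOA libraries lie above, or all below, the matching NC, against 9.21% of all tested genes.

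Within lines the calls were also 0 of 12592 genes, with 21 at an unadjusted p under 0.05 in PANC-1 and 33 in the 90 line, and each line has a single NC library. In PANC-1 both siALDOA libraries lay above NC for CDH1, CDH2 and CTNND1, which 22.9% of all tested genes did. CTNND1 stood at 1.38 and 1.39 times NC there (log2 change 0.44, SE 0.303, limma adjusted p = 1). CDH1 stood at 1.74 and 1.57 times NC (log2 change 0.44, SE 0.287, limma adjusted p = 1). In the 90 line both siALDOA libraries lay below NC for 1 of the 8, CDH1, and for 22.5% of all tested genes. It stood at 0.968 and 0.853 times NC (log2 change -0.13, SE 0.287, limma adjusted p = 1), and after the GC correction the sign turned, to 0.051, with its libraries on both sides of NC (0.20 and -0.10). Both libraries were below NC in 90 and above NC in PANC-1 for 7.3% of all tested genes, and on opposite sides in the lines for 9.91%.

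Promoter windows of RefSeq (GRCh38.p14, 250 bases before to 50 after the start of the gene) were matched by symbol for 6 of the 10 genes (CDH2, CTNNB1, DSC2, DSG2, DSG3 and DSP), with 8 windows in all, since CDH2 and DSC2 each have 2 starts. Those of DSG2, DSP and DSC2 are shown because the 3 genes were highest in the same library of each line, and that of CDH2 because it was the gene called higher in PANC-1. They are written 5′ to 3′ in the direction of the gene, and capitals mark each match to CAGGTG or its reverse complement CACCTG, the E-box that Snail and ZEB repressors bind in the E-cadherin promoter.
DSG2 (chr18:31497927-31498226, plus strand): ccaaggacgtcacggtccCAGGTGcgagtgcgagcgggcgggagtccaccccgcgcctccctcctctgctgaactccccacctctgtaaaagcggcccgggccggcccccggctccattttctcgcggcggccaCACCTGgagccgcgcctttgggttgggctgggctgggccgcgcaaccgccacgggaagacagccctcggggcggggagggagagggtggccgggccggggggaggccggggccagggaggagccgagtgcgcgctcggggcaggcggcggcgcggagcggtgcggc
DSP (chr6:7541421-7541720, plus strand): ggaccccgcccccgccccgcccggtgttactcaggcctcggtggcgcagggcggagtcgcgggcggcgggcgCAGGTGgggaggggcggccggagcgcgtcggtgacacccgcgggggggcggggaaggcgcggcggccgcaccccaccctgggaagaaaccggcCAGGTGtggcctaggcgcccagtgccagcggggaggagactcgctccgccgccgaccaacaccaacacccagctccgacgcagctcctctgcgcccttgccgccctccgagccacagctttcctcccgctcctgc
DSC2, upstream start (chr18:31102372-31102671, minus strand): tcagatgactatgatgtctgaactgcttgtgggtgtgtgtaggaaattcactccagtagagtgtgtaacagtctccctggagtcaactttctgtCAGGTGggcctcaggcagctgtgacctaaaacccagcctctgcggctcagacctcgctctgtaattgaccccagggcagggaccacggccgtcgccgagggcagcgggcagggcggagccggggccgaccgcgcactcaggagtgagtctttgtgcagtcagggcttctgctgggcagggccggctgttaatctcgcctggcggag
CDH2, upstream start (chr18:28177081-28177380, minus strand): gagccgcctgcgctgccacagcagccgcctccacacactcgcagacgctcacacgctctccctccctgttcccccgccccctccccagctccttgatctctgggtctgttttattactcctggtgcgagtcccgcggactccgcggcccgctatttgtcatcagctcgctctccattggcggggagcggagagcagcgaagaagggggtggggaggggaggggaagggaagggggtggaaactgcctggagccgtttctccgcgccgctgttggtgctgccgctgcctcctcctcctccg
The motif was found in 3 of the 8 windows, 2 times in DSG2, 2 times in DSP and 1 time at the upstream start of DSC2. Of all 35116 windows of the same length, 20.6% held it on either strand. The GC content of the windows was 76.7% for DSG2 and 77% for DSP, against a median of 58.7% over all windows, so the promoters of both genes are GC-rich although the DSG2 transcript is not. DSC2 and DSG2 lie in a cluster of 7 desmosomal cadherin genes that spans 559 kb of chromosome 18. DSC2 runs from 31058840 to 31102522 on the minus strand, DSG3 from 31447795 to 31478702 and DSG2 from 31498043 to 31549008, both on the plus strand. Of the 7 genes, DSC2 and DSG2 alone reached 0.1 FPKM in any library, and the highest value of the others was 0.0417 FPKM (DSC3 in NC of PANC-1). DSP is elsewhere, on chromosome 6 (7541575 to 7586717, plus strand).

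Other components of the same junctions were called between the lines in both directions. For each list from here on, the count called stands beside 38.8% of all tested genes, 20.4% higher and 18.4% lower. No list was tested against that share. Of 9 further catenin genes, 6 were tested and 2 were called, both lower in PANC-1. JUP, which encodes plakoglobin, shared by both junction types, was at 67.5, 47.4 and 59.4 FPKM in siALDOA 1, siALDOA 2 and NC of PANC-1 against 117, 171 and 152 in the 90 line (log2 difference -1.32, SE 0.215, limma adjusted p = 7.78e-03). ARVCF, a relative of p120 catenin, was at 2.20, 1.68 and 2.38 FPKM against 10.1, 12.9 and 12.7 (log2 difference -2.06). The alpha-catenin gene CTNNA1, which was not called, was at 81.1 to 90.6 FPKM in PANC-1 and at 101 to 112 FPKM in the 90 line.

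Of 9 further desmosome genes, 4 were tested, with 1 called higher and 2 lower. PERP, a membrane protein of desmosomes, was at 159, 213 and 164 FPKM in siALDOA 1, siALDOA 2 and NC of PANC-1 against 65.6, 43.8 and 45.0 in the 90 line (log2 difference 1.79, SE 0.208, limma adjusted p = 2.61e-03). PKP2, which encodes plakophilin 2, was at 0.382 to 0.770 FPKM in PANC-1 and 10.1 to 28.8 in the 90 line (log2 difference -3.58), and it passed the filter only through the 90 line. PPL, the periplakin gene, was also lower (log2 difference -1.78). The 5 untested genes included DSC1, DSC3, DSG1 and DSG4.

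Of 18 other cadherins, 3 were tested and all were called lower in PANC-1. CDH11, a cadherin of mesenchymal cells, was at 0.0355 to 0.0684 FPKM in PANC-1 and at 4.44 to 10.95 FPKM in the 90 line (log2 difference -2.94, SE 0.331, limma adjusted p = 2.33e-03). CDH5, the cadherin of endothelial cells, was listed at 0 in each PANC-1 library and was at 3.28, 3.004 and 3.24 FPKM in siALDOA 1, siALDOA 2 and NC of the 90 line. Other endothelial markers differed with it, PECAM1 at 0 to 0.0201 FPKM in PANC-1 and 0.473 to 0.508 in the 90 line, and VWF at 0 to 0.0155 and 0.0639 to 0.143 FPKM. KDR was at 0.0151 to 0.0264 FPKM in PANC-1 and 0 to 0.00868 in the 90 line, and the part of endothelial RNA in the CDH5 value was not tested. CDH24 had a log2 difference of -0.99. CDH11 and CDH5 passed the filter only through the 90 line, so they could not have been called higher in PANC-1. Among those not tested, CDH17 was at 0.210 to 0.563 FPKM in PANC-1 against 0.0426 to 0.122, and CDH18 at 0.0696 to 0.292 against 0 to 0.0156.

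Of 5 nectin and afadin genes, all tested, 1 was called higher and 2 lower in PANC-1. PVRL1, now named NECTIN1, was at 3.84, 3.48 and 2.87 FPKM in siALDOA 1, siALDOA 2 and NC of PANC-1 against 53.5, 68.6 and 66.3 in the 90 line (log2 difference -3.86, SE 0.176, limma adjusted p = 2.23e-04). PVRL4 was at 0 to 0.0305 FPKM against 3.38 to 4.97 FPKM and passed the filter only through the 90 line. PVRL2 was higher in PANC-1 (log2 difference 0.60, SE 0.162, limma adjusted p = 0.0393). Of 6 genes of cortical linkers, ACTN4 (log2 difference 1.62) and VCL, which encodes vinculin (1.08), were higher, and PLEKHA7, which binds p120 catenin at adherens junctions, was lower (-2.27, SE 0.154, limma adjusted p = 5.22e-04).

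Of 6 transcriptional repressors of CDH1, 3 were tested, with 1 called higher and 1 lower in PANC-1. SNAI1, which encodes Snail, was at 8.52, 6.12 and 8.22 FPKM in siALDOA 1, siALDOA 2 and NC of PANC-1 against 0.510, 0.553 and 0.198 in the 90 line (log2 difference 2.60, SE 0.219, limma adjusted p = 0.001003). SNAI2, which encodes Slug, ran the other way, at 0.325, 0.177 and 0.0688 FPKM against 32.2, 18.2 and 23.5 (log2 difference -4.40, SE 0.261, adjusted p = 3.70e-04). ZEB1 was at 0.0906, 4.23 and 1.06 FPKM in PANC-1 and 0.750, 0.0960 and 0.0171 in the 90 line, and was not called. Each of these 3 genes passed the filter only through the line where it was high, which fixed its direction. Of the untested, TWIST2 was at 1.14 to 1.49 FPKM in PANC-1 against 0 to 0.0375 in the 90 line, and ZEB2 and TWIST1 stayed at 0.335 FPKM or less.

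Of 11 epithelial transcription and splicing factors, 10 were tested, with 1 called higher and 8 lower in PANC-1. Of the 8, 6 (GRHL2, KLF5, EHF, ESRP1, OVOL1 and OVOL2) passed the filter only through the 90 line, which fixed their direction. The other two were ELF3, at 2.10 to 2.41 FPKM in PANC-1 against 26.5 to 33.7, and KLF4, at 2.17 to 2.37 against 5.68 to 6.93. GRHL2, a regulator of CDH1 and of other junction genes, was at 0.0408 to 0.114 FPKM in PANC-1 and 8.57 to 14.5 FPKM in the 90 line (log2 difference -3.58, SE 0.244, limma adjusted p = 5.33e-04). KLF5 (-4.37), EHF (-4.06) and the splicing factor ESRP1 (-3.55) were also lower. GRHL3 was higher in PANC-1, at 4.97 to 5.31 FPKM against 1.23 to 1.78 (log2 difference 1.35). GRHL1, which was not tested, was also higher there, at 0.606 to 1.18 FPKM against 0.153 to 0.363.

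Around beta-catenin, the genes of its destruction complex had 0 of 5 tested genes called. Those with the smallest p were BTRC (log2 difference 0.84, SE 0.275, limma adjusted p = 0.0671) and AXIN1 (0.32, SE 0.173, adjusted p = 0.219). Of 13 genes of TCF/LEF factors and beta-catenin targets, 8 were tested and 3 were called, all higher in PANC-1. These were TCF7L1 (log2 difference 1.47, SE 0.155, limma adjusted p = 1.90e-03), TCF7L2 (0.82) and NOTUM (1.14), a secreted inhibitor of Wnt proteins, which passed the filter only through PANC-1. Untested genes of this list went both ways. LEF1 was at 0.0538 to 0.165 FPKM in PANC-1 against 0.525 to 0.940, and SP5 at 0 to 0.364 against 0.423 to 0.836. RNF43 was at 0.785 to 0.803 FPKM in PANC-1 against 0.0113 to 0.0741, and the ranges of NKD1 and LGR5 overlapped. AXIN2, a common readout of Wnt signalling, stood at 0.103 to 0.195 FPKM in PANC-1 and 0.239 to 0.285 in the 90 line and was not tested.

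Of 8 genes for cadherin shedding and turnover, 7 were tested and 4 were called, all lower in PANC-1. MMP7, which was not tested, ran the other way. It was at 1.19, 1.91 and 1.65 FPKM in siALDOA 1, siALDOA 2 and NC of PANC-1. In the 90 line it was at 0.275, 0.0939 and 0.101 FPKM. MMP14, a membrane-bound matrix protease, was at 8.72, 6.04 and 5.88 FPKM in siALDOA 1, siALDOA 2 and NC of PANC-1 against 105, 138 and 142 in the 90 line (log2 difference -4.04, SE 0.217, limma adjusted p = 2.91e-04). ADAM15 (-2.64) and CTSL (-1.21) were also lower. ADAM10, which cleaves E-cadherin and N-cadherin, was not called and swung like DSG2, at 1.63, 20.5 and 8.96 FPKM in PANC-1 and 22.2, 4.26 and 2.69 in the 90 line.

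The genes most like CDH1 over the 6 libraries, by Euclidean distance between log2(FPKM + 1) values centred on each gene's mean, were LOC101928013 (distance 0.27), SEL1L3 (0.32), the gene described as mitochondrial amidoxime reducing component 1 (0.34), RASGRF1 (0.34) and SOX7 (0.35), among 12268 genes compared. SEL1L3, for example, was at 0.202 to 0.382 FPKM in PANC-1 and at 15.9 to 22.6 FPKM in the 90 line. All of these genes were under 1 FPKM in each PANC-1 library and passed the filter only through the 90 line. Their likeness to CDH1 is therefore largely one of line difference. Those most like CDH2 were CABYR (0.15), LINC00261 (0.16), SMIM10 (0.19), SNX9 (0.20) and CUTC (0.21). Each of these was higher in each PANC-1 library than in each 90 library, so this likeness too is largely one of line difference. LINC00261 was at 0.0214 to 0.209 FPKM in the 90 line and 2.62 to 3.65 in PANC-1, and passed the filter only through PANC-1.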

How the data were processed

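The RNA was poly(A)-selected, per the labels' protocols, and an Illumina HiSeq is named in the series' text. The authors deposited FPKM values per gene for 6 libraries. HISAT2, featureCounts and the build hg38 are named in the submitters' processing notes. No version, setting, strand use or gene length is stated in the sources. There were 41769 rows, 1 of them with no gene name and 4 sharing a symbol.

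Depth was recovered from short RNAs, for which 97.2% to 97.7% of FPKM times RefSeq length were whole multiples of 1 step per library (tolerance 0.03 of a step). A value of 3 fragments on 1 kb is 0.137 to 0.169 FPKM, which covers counting error only. FPKM are not counts, so count models were not used. The scale of analysis was log2(FPKM + 1), which understates folds of low genes, in R 4.3.3 with limma 3.58.1. The filter on the mean (1 FPKM or more) left 12592 genes. Line and siALDOA were additive terms (3 residual degrees of freedom). Effects within lines came from the 4 group means (2 residual degrees of freedom), where the single NC library borrows its spread from siALDOA libraries. Calls need a Benjamini-Hochberg adjusted p under 0.05 over all tested genes. GC content and length are those of the longest GENCODE v29 transcript, found for 94.6% of tested genes. The limma fits were tested on simulated data with noise drawn separately for each gene and library. Shifts shared by many genes, as with GC content here, were not simulated, so the test does not cover them.

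The genes and lists were chosen with earlier results of these data known. All 10 genes are named, and from each list up to 4 called genes per direction with the largest difference, or the 2 with the smallest p where none was called; other genes are named after their values were seen. A called gene of the shedding and turnover list is not reported here. Alternatives were other pseudocounts, filters and scalings, a GC correction, no variance trend, a replicate block and leaving out libraries.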

Additional observations from a re-analysis of the deposited data

Results flagged for a closer look

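For CDH1, both siALDOA libraries lay above NC in PANC-1 and both lay below NC in the 90 line, with no effect past the test in either. Its log2 changes were 0.49 in siALDOA 1 and 0.39 in siALDOA 2 of PANC-1, and -0.047 and -0.22 in siALDOA 1 and siALDOA 2 of the 90 line. The difference between the effects of the lines was 0.57 (SE 0.406) and did not pass limma (adjusted p = 1). Across the 12592 tested genes that test called 0, and 24 had an unadjusted p under 0.05. Of all tested genes, 9.91% had siALDOA libraries on opposite sides of NC in the lines. After the GC correction the difference was 0.28 (SE 0.436). With that correction the effect in the 90 line was 0.051, and its libraries lay on both sides of NC (0.20 in siALDOA 1 and -0.10 in siALDOA 2).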

How the results depend on the processing

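Of the PANC-1 minus 90 results, CDH1, CDH3, CDH2 and PKP3 kept their direction and call in each alternative that tested them, while CTNND1, DSP and DSG2 changed their call as described with their values. The number of genes called in that comparison was 4882, and 2422 to 4110 with 1 library left out, lowest without either NC library. Same-numbered siALDOA libraries of the lines deviated in opposite directions (correlation of deviations -0.86 over 12592 genes, 2 pairs). With 2 pairs this cannot tell whether equal numbers mark the same siRNA. A replicate block by number gave 3258 calls. With the crossed pairing as the block, an alternative chosen after seeing the data, 7594 genes were called. Leaving out siALDOA 1 of both lines, also chosen after seeing the data, gave 17 calls for siALDOA minus NC over both lines, against 0. With no filter on low values, 49 genes were called in PANC-1 and 38 in the 90 line, against 0 in each. None of the siALDOA estimates of the 8 genes passed limma in any alternative, and the signs of those near 0 turned in some. Over both lines they were -0.023 for CDH2 after quantile normalization and 0.010 for CTNNB1 rescaled to TPM. In the 90 line they were -0.038 for PKP3 scaled by the median ratio, 0.024 for CDH2 rescaled to TPM, and 0.051 for CDH1, 0.079 for CDH2 and 0.0077 for CTNND1 after the GC correction. For the difference of the effects, PANC-1 minus 90, they were 0.057 for DSP with a pseudocount of 0.1 and 0.0039 rescaled to TPM, -0.0050 for PKP3 after quantile normalization, and -0.18 for CDH3 and -0.085 for PKP3 after the GC correction. Over both lines leaving out 1 library at a time gave -0.23 to 0.13 for CTNNB1, -0.012 to 1.06 for DSG2, -0.063 to 0.15 for PKP3, -0.13 to 0.44 for CDH1, -0.0073 to 0.27 for CDH2, -0.15 to 0.44 for CTNND1. In PANC-1 leaving out 1 library at a time gave -0.084 to 0.40 for CDH3, -0.11 to 0.24 for PKP3, -0.078 to 0.31 for CTNNB1, -0.61 to 0.998 for DSG2, -0.18 to 1.11 for DSP. In the 90 line leaving out 1 library at a time gave -0.29 to 2.21 for DSG2, -0.59 to 1.69 for DSP, -0.18 to 0.17 for CDH2, -0.11 to 0.32 for CDH3, -0.62 to 0.15 for CTNNB1, -0.38 to 0.079 for CTNND1, -0.23 to 0.27 for PKP3. For the difference of the effects, PANC-1 minus 90, leaving out 1 library at a time gave -0.19 to 0.30 for CDH3, -2.02 to 0.49 for DSG2, -1.23 to 1.05 for DSP, -0.21 to 0.29 for PKP3, -0.038 to 0.73 for CTNNB1. The cause of these turns was not tested. Without the NC library of a line, effects within that line and their difference have no value. At this depth DSG3 could not be quantified, and DSC2 and the genes under 1 FPKM were described without a test.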
